A study of Mus musculus with 2 samples.

Results

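The genes of the cytosolic ribosomal proteins, which build the large and small subunits of the ribosome, were followed in mouse cardiac myofibroblasts with and without knockdown of Bcat1. Members were taken by symbol: Rpl or Rps with a number and at most a short copy suffix, together with Rplp0, Rplp1, Rplp2 and Rpsa, and without pseudogene symbols or the S6 kinases. The rule found 85 of the 24532 genes in the count table, 53 of the large subunit and 32 of the small subunit. The cells were primary cardiac myofibroblasts of C57BL/6 mice, taken 3 days after myocardial infarction. They were transfected at 12.5 nM with a control siRNA, called siControl, or with one directed at Bcat1, called siBcat1, and stayed in culture for 72 hours. Bcat1 encodes the cytosolic aminotransferase of branched-chain amino acids. Each group was 1 library, so there are no replicates, no difference could be tested against replicate spread, and 1 siRNA stands for the knockdown.

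Each cytosolic ribosome carries 1 copy of nearly every ribosomal protein, arranged on the ribosomal RNAs, and the acidic proteins of the P stalk are present in several copies. The mRNAs of these proteins are among the most abundant in growing cells, and they typically begin with a C followed by an unbroken run of C and T, the terminal oligopyrimidine tract. Through this tract their translation, and in part their stability, is tied to the kinase mTOR and the RNA-binding protein LARP1, which respond to amino acids and growth factors. Myofibroblasts are secretory cells that make much collagen and fibronectin, and their ribosomes carry that load.

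The start sites below are examples of members with and without such a tract near the annotated start. Each line gives 30 bases around the start annotated by RefSeq (GRCm38.p6), from 10 before it to 20 after, on the gene's own strand. Capitals mark the longest run of C and T of at least 5 bases that begins with a C within 10 bases of the start. The genes were picked to show high folds (Rps9, Rps12, Rplp2, Rps15a), a regulated phosphoprotein (Rps6), a low fold (Rpl15) and starts with no such run (Rpl5, Rpsa).
Rps9, chr7:3704031-3704060, plus strand: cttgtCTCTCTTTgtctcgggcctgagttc
Rps12, chr10:23787190-23787219, minus strand: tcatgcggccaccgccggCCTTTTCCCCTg
Rplp2, chr7:141447641-141447670, plus strand: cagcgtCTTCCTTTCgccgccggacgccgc
Rps15a, chr7:118116128-118116157, minus strand: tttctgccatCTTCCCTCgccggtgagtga
Rps6, chr4:86857348-86857377, minus strand: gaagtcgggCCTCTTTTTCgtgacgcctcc
Rpl15, chr14:18270967-18270996, minus strand: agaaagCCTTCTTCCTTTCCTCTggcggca
Rpl5, chr5:107900518-107900547, plus strand: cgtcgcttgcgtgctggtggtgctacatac
Rpsa, chr9:120127756-120127785, plus strand: ttatttaaggacgtcatttccggccgcccg

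RefSeq starts were matched for 64 of the 85 members, with 76 starts in all. A run of at least 5 beginning within 10 bases of the start was present at 42 of these starts (55.3%), against 31.4% of the 21969 starts of 18245 genes in the count table. Longer runs, of at least 8, were present at 25 starts (32.9%), against 8.37% of all starts. Exactly at the annotated base, 14 starts (18.4%) had the run, against 2.34% of all starts. Rps15a is one of these, whereas the run of Rps9 begins 5 bases before its annotated start and that of Rps12 begins at base 9. These matches describe letters in a window, and an annotated start need not be the start used in these cells.

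The libraries held 127309329 counts in siControl and 104581819 in siBcat1, and counts were scaled to the library size (CPM) with trimmed mean of M values factors of 1.03 and 0.969. Bcat1 itself (chr6:144993835-145076157, minus strand) had 8891 counts in siControl against 99 in siBcat1, which is a log2 fold of -6.11 with an exact 95% interval of -6.41 to -5.83. All 10 fibroblast and all 6 myofibroblast markers were present, but their summed level was lower in siBcat1, at 27012 and 11930 CPM for the fibroblast list and 17651 and 8621 CPM for the myofibroblast list. Most of the first difference lay in Col1a1, Col1a2 and Col3a1. Pdgfrb was also lower (458 and 165 CPM), and Thy1 was higher (90.9 and 141 CPM). Nearly all of the second difference lay in Fn1 (11958 and 2955 CPM). Postn was also lower (669 and 292 CPM), Acta2 was near level (3380 and 3139 CPM) and Tagln was higher (1528 and 2129 CPM). Summed macrophage markers had 10.3 and 28.7 CPM, with Ptprc, Adgre1, Fcgr1, C1qa and Tyrobp at 0 in siControl. Most of that difference lay in Lyz2 (5.46 and 21.3 CPM). Cardiomyocyte markers had 46.4 and 10.4 CPM, nearly all of it from Tnnt2 (46.3 and 10.3 CPM), with Myh6, Ryr2, Nppa and Mb at 0 in siControl. Endothelial markers had 47.4 and 48.5 CPM, mural markers 8.46 and 4.63 CPM, and lymphocyte markers 0.015 and 0 CPM. In bulk RNA, fewer cells of a type and less RNA per cell cannot be told apart.

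Ribosomal protein mRNAs took up about double the share of the library after Bcat1 knockdown. They held 7.32% of all counts in siControl (exact binomial 95% interval 7.319 to 7.328) and 14.6% in siBcat1 (14.565 to 14.579), a ratio of 1.99. Large subunit genes went from 4.19% to 8.05%, and small subunit genes from 3.13% to 6.52%. With the 10 most abundant other genes left out of the total the values were 7.89% and 15.6%, a ratio of 1.98. Intervals here and below cover counting error only, because each group was 1 library. Reads from amplified fragments are not independent molecules, so the intervals may be too narrow even for that error.

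The shift was spread over the family and was not carried by a few genes. Of the 85 members, 79 had a mean of at least 5 CPM, the minimum applied to all genes, and 9935 genes passed it in all. None of the 79 passed through 1 library alone, since the lowest, Rpl34, had 36.8 CPM in siControl. Raw counts were higher in siBcat1 for 80 members and lower for 3, although that library was the smaller. The log2 fold, siBcat1 over siControl in scaled counts, was above 0 in 79 of 79, with the whole counting interval above 0 in each, against 46.8% of all analysed genes. The median was 1.07, with quartiles of 0.93 and 1.22, whereas the median of all analysed genes was -0.06.

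By size, 51 of the 79 were at least 2-fold higher, against a background of 5.58% of analysed genes, and none was 2-fold lower, against 13%. The count depends on the scale: 3 were 2-fold higher after removal of the trend of fold with transcript length (background 4.29%). In TPM, the deposited values scaled for length and depth, 4 were (background 1.27%). Much of the drop in TPM was shared by all genes, whose median fell from -0.06 to -0.47. The members' median stood 1.03 above that of all genes in TPM and 1.13 above it in scaled counts. These 2 distances are from different sets of genes and are not directly comparable. With the length trend removed it stood 0.30 above. In scaled counts 76 members were at least 1.5-fold higher (background 17.6%), and 2 were at least 3-fold higher (background 0.946%). Rpl15 and Rpl7l1 were among those under 1.5-fold. The median counting interval reached 0.011 on the log2 scale to either side, so the spread between members is much wider than counting error.

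**Figure D1:**
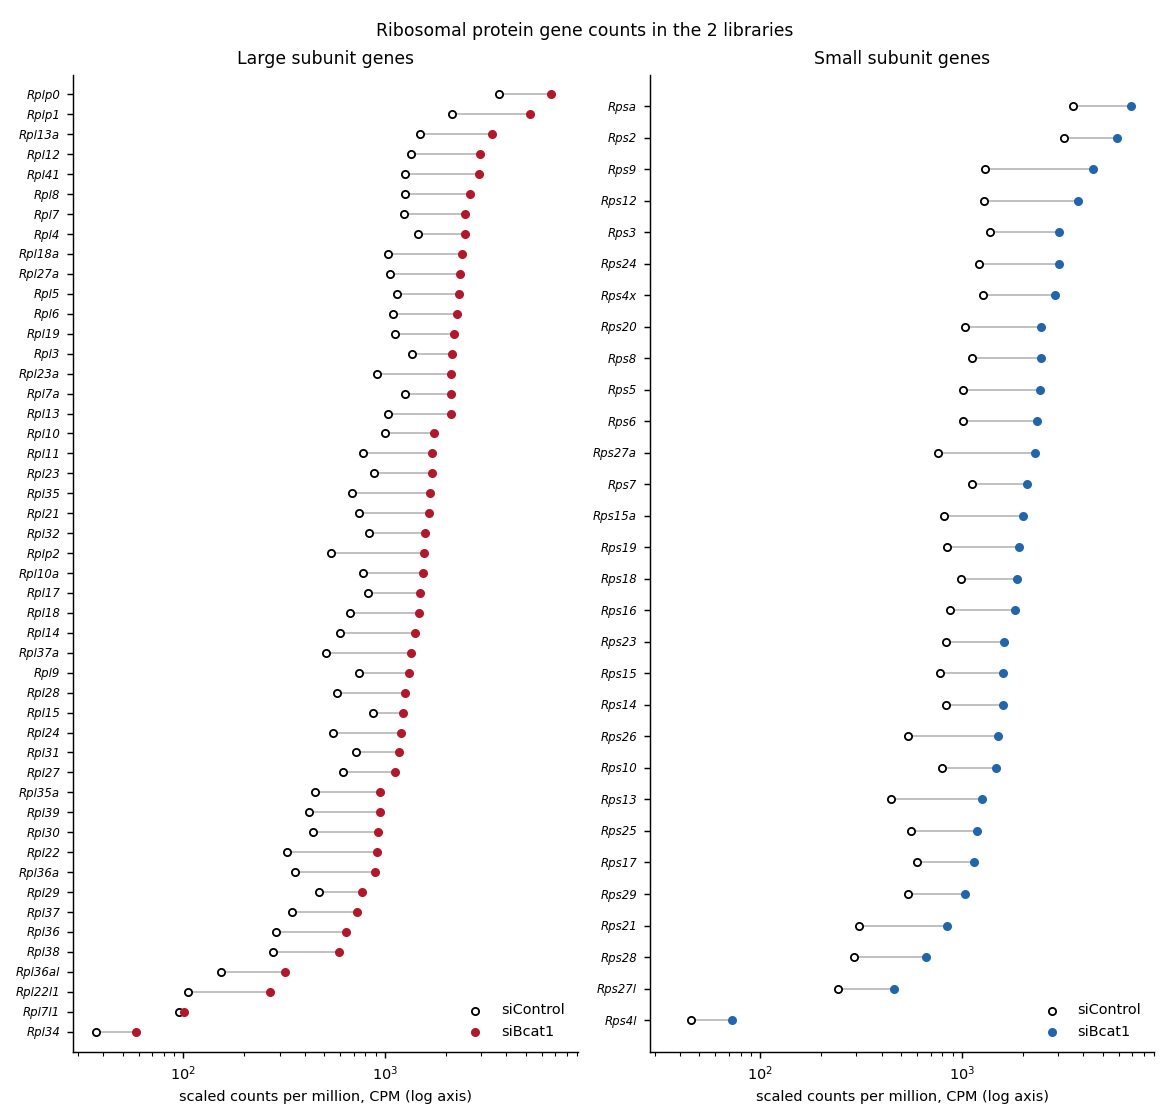
CPM, scaled counts on a log axis, of large and small subunit genes that passed the minimum, with open circles for siControl and filled circles for siBcat1, 1 library each. The filled circle lies to the right of the open one for each gene shown, by little for Rpl7l1 (94.8 and 100.3 CPM).

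Among small subunit genes, Rps9 stood highest (chr7:3703954-3706897, plus strand). It encodes a protein at the channel through which mRNA enters the ribosome, and its counts were 171189 in siControl against 451137 in siBcat1. On the CPM scale this was 1302 and 4453, a log2 fold of 1.77 (1.77 to 1.78). Rps27a, which is made as a fusion of ubiquitin with a ribosomal protein, followed with 761 and 2316 CPM and a log2 fold of 1.60. Rps9 and Rps27a are the 2 members past 3-fold. Rps12, a protein of the small subunit head, had 1293 and 3779 CPM (log2 fold 1.55). Rps13, which binds 18S ribosomal RNA, had 447 and 1259 CPM (1.49). Rps26, which lies near the mRNA exit and is mutated in some patients with Diamond-Blackfan anaemia, had 539 and 1513 CPM (1.49). Rps21, a small protein specific to eukaryotes, had 307 and 842 CPM (1.45). Rps6, the substrate of the S6 kinases, had 1012 and 2364 CPM (1.22). Rps19, the gene most often mutated in Diamond-Blackfan anaemia, had 839 and 1913 CPM (1.19).

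Rpsa and Rps2 had the most counts of the small subunit and folds below the family median. Rpsa, also known as a laminin receptor, had 3574 and 6935 CPM, a log2 fold of 0.96. Rps2, another protein of the mRNA entry channel, had 3193 and 5854 CPM (0.87). Chromosome 7, where Rps9 lies, carries 14 of the 85 members, and the family is spread over 19 chromosomes.

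In the large subunit the highest fold was in the P stalk, the flexible arm that recruits the elongation factor GTPases. There Rplp2 had 542 and 1554 CPM, a log2 fold of 1.52, and Rplp1 had 2150 and 5259 CPM (1.29). Their anchor on the ribosome, Rplp0, had 3667 and 6638 CPM and a smaller log2 fold of 0.86. Rpl22, a surface protein that cells can lack, had 326 and 911 CPM (1.48). The partners of 5S ribosomal RNA, Rpl5 and Rpl11, which also bind MDM2 when ribosome assembly fails, had log2 folds of 1.02 (1148 and 2332 CPM) and 1.14 (778 and 1718 CPM). Rpl41, the smallest ribosomal protein, had 1256 and 2915 CPM (1.22).

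At the low end of the large subunit, Rpl7l1 was nearly level, with 94.8 and 100.3 CPM and a log2 fold of 0.08 (0.04 to 0.12). Rpl7l1 is related to a yeast factor of large subunit assembly and is not known as a stable part of the mature ribosome. Rpl15, a core protein of the subunit, had 871 and 1234 CPM (0.50). Rpl3, which reaches towards the peptidyl transferase centre, had 1364 and 2138 CPM (0.65). Rpl31, at the rim of the exit tunnel, had 720 and 1169 CPM (0.70), and Rpl29 had 470 and 768 CPM (0.71).

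**Figure D2:**
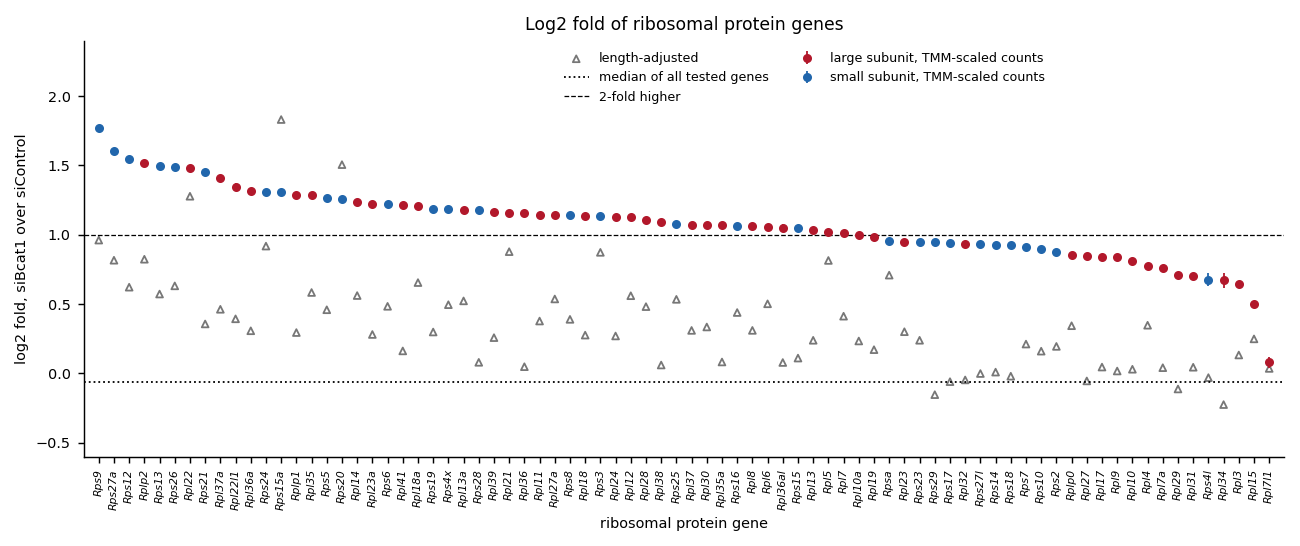
Log2 fold of analysed members, siBcat1 over siControl (circles, with counting intervals that are mostly smaller than the symbol), in order of size, and the same fold after removal of the trend with transcript length (triangles). Circles run from 1.77 for Rps9 to 0.08 for Rpl7l1, above the dotted median of all analysed genes at -0.06, and most triangles lie between 0 and 1.

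Grouped by structure and origin, the medians were close to each other. The 48 large subunit genes had a median log2 fold of 1.07 with 32 at least 2-fold higher, and the 31 small subunit genes a median of 1.13 with 19. The 32 analysed genes whose proteins have a counterpart in bacteria had a median of 1.02, and the 40 shared with archaea or specific to eukaryotes 1.13. The 7 analysed genes of the polypeptide exit tunnel had 0.98, the 3 of the P stalk 1.29, and the 4 X-linked genes (Rpl10, Rpl36a, Rpl39 and Rps4x) 1.17. The 16 analysed genes that are mutated in Diamond-Blackfan anaemia had 1.05. These groups are small and were not compared by a test.

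Transcript length moved with the fold across the whole table. Over 9890 analysed genes with a length, the log2 fold had a Spearman correlation of -0.65 with log2 transcript length, and short transcripts were higher in siBcat1. This is a correlation across genes, which are not independent replicates. Ribosomal protein transcripts are short, with a median of 833 bases against 3135 for all. When the trend over all genes was subtracted, the median of the 79 members was 0.30, against -0.00076 over all genes. After this step 69 members were above 0, against 49.9% of genes, 14 were at least 1.5-fold higher (background 13.2%), 3 were at least 2-fold higher (background 4.29%), and none was 1.5-fold lower (background 14.1%). With GC content removed as well, 4 members were at least 2-fold higher (background 3.46%), and with the lengths that counts and TPM imply, 3 were (background 3.87%). The part of length in the family's difference was not tested beyond these subtractions.

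Within the family, length and fold were only weakly related, at -0.138 (Spearman) and -0.162 (Pearson) over 79 genes. GC content of the transcript had a Spearman correlation of -0.028 with the fold. After the length step the fold rose with length within the family, at 0.533 (Spearman) and 0.662 (Pearson) over the 79 genes. The 3 members past 2-fold after this step all have long annotated transcripts, so their place at the top depends on the subtraction. Rps15a (5179 bases) had 813 and 2014 CPM, with log2 folds of 1.31 before and 1.83 after. Rps20 (3706 bases) had 1035 and 2480 CPM, with 1.26 before and 1.51 after, and Rpl22 (2051 bases) had 1.48 before and 1.28 after. Rps9, of 751 bases, kept 0.96, and Rps27a kept 0.82. Towards the other end Rpl34 had -0.22 and Rpl29 -0.11. For Rps15a and Rps20 the adjusted value rests on the annotated length, and a shorter mRNA in the cells would give a smaller one. The lengths implied by the deposited counts and TPM were 5154 and 3460 bases, so the authors' own TPM use long transcripts for both as well. For 12 analysed members the annotated and implied lengths differ by at least 1.5-fold. Among these, Rplp2 has 964 annotated and 443 implied bases, and its adjusted log2 fold was 0.82 with the first and 0.51 with the second.

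**Figure D3:**
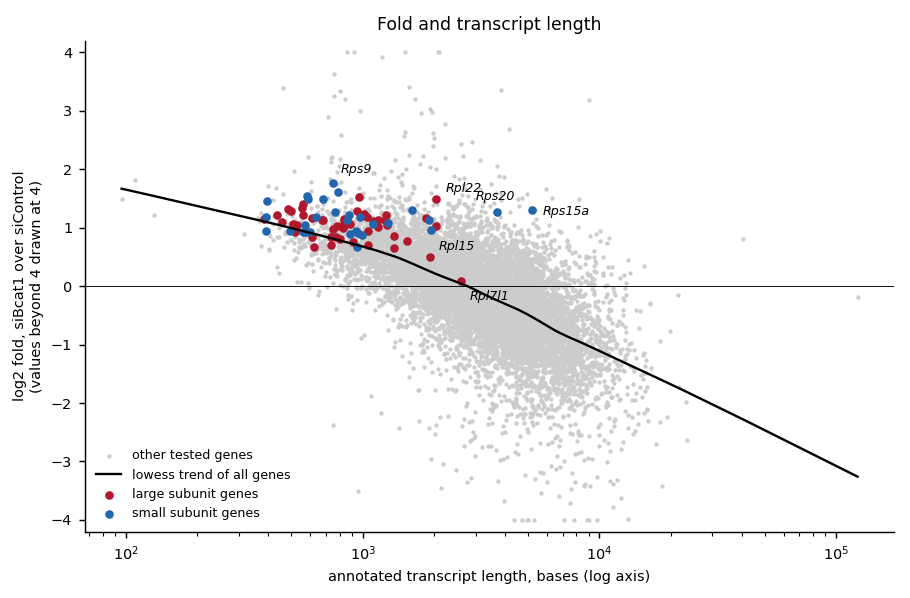
Log2 fold (siBcat1 over siControl) against annotated transcript length in bases (log axis) for analysed genes, with the lowess trend of all genes as a line and values beyond 4 drawn at 4. Ribosomal protein genes lie mostly at the short end, near or above the line, and Rps15a, Rps20 and Rpl22 lie furthest above it.

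Several members are copies that arose by duplication or from reverse-transcribed mRNA, and 9 of the 85 are of this kind. The 5 analysed copies had a median log2 fold of 0.93 (0.04 after the length step). Rpl22l1 had 106 and 269 CPM (log2 fold 1.34), beside 1.48 for its parent Rpl22. Rpl36al had 154 and 320 CPM (1.05), beside 358 and 893 CPM (1.32) for Rpl36a, the X-linked parent. Rps27l, a p53 target, had 243 and 463 CPM (0.93). Rps4l, a retroposed copy of Rps4x, had 45.4 and 72.6 CPM (0.68), beside 1279 and 2911 CPM (1.19) for Rps4x. Rpl7l1, above, stood beside Rpl7 with 1241 and 2507 CPM (1.01). In each of the 4 pairs with both genes analysed the copy had the lower fold. The copy also had the lower TPM except for Rpl22l1, with 459 and 821 TPM against 309 and 603 for Rpl22.

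Copies known from other tissues were near or at 0. Rpl3l, the form of Rpl3 made in heart and skeletal muscle fibres, and Rpl10l, made in testis, had 0 counts in both libraries, which allows at most 3 counts. Rpl39l had 88 and 80 counts, where its parent Rpl39 had 420 and 940 CPM (1.16). Rpl32l had 53 and 59 counts. The parent of Rpl10l, Rpl10, which joins the large subunit late, had 996 and 1751 CPM (0.81). Identity between parent and copy transcripts ran from 74.4% (Rpl3 and Rpl3l) to 87.7% (Rpl36a and Rpl36al) over the aligned bases, so reads from the closest pairs could in part be shared.

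The remaining low members, Rpl26 and Rps27, encode standard parts of the ribosome, and near-identical rows of the table held far more counts. Rpl26 (chr11:68901566-68904534) had 235 and 386 counts, and Rps27 (chr3:90212667-90213648) had 425 and 424. Gm15772 (chr5:3236390-3236928), for which RefSeq gives Rpl26 as a synonym, had 104282 and 178699 counts. Rps27rt (chr9:114982366-114982739), a retroposed copy of Rps27, had 62611 and 115206. Rpl34 shows the same pattern in part, with 4834 and 5932 counts against 59797 and 96265 on Rpl34-ps1 (chr6:71124589-71125001). The first 30 bases of the open reading frames (GENCODE M21 transcripts, GRCm38), are the same letter for letter in each pair, with the start codon in capitals.
Rpl26: ATGaagttcaatcccttcgtgacttctgac
Gm15772: ATGaagttcaatcccttcgtgacttctgac
Rps27: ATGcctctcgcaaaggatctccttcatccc
Rps27rt: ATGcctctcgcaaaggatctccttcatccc
Rpl34: ATGgtccagcgtttgacataccgccgtagg
Rpl34-ps1: ATGgtccagcgtttgacataccgccgtagg

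Over their full alignments these pairs remained almost identical. Rpl26 and Gm15772 differed at 2 of 438 aligned bases (C177T and T288C, parent base first, counted from 1 at the first base of the reading frame), and Rpl34 and Rpl34-ps1 at 2 of 354 (T132C and C318G). Rps27 and Rps27rt had no mismatch over 341 bases. Of the summed counts of each pair, the parent row held 0.225% and 0.216% for Rpl26, 0.674% and 0.367% for Rps27, and 7.48% and 5.80% for Rpl34 in siControl and siBcat1. Reads of such pairs can be assigned to either row, so the parent rows alone are uncertain. Summed with their copies, Rpl26 had 795 and 1768 CPM (log2 fold 1.15), Rps27 had 480 and 1141 CPM (1.25), and Rpl34 had 492 and 1009 CPM (1.04). All 3 sums are thus past 2-fold (background 5.58%), which makes 54 members in place of 51. Rpl26 and Rps27 were not among the 79 analysed members, so the base of that count also changes. After the length step, at the parent's length, the sums had log2 folds of 0.18, 0.30 and 0.14, and none was past 2-fold (background 4.29%). These pairs were chosen after the low counts had been seen.

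**Figure D4:**
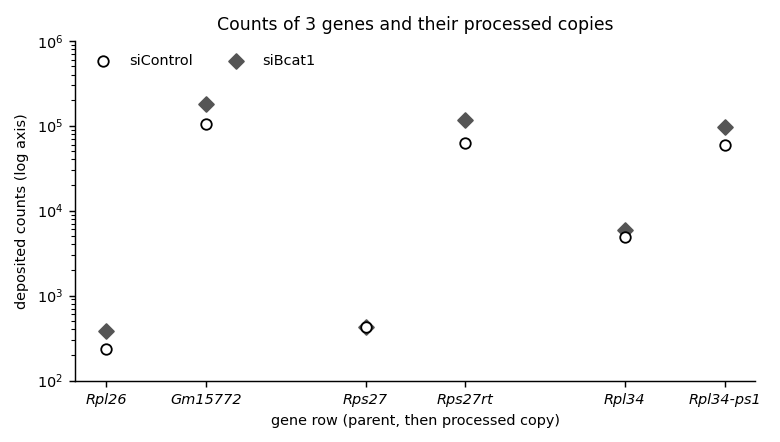
Deposited counts (log axis) of Rpl26, Rps27 and Rpl34 and of their near-identical processed copies Gm15772, Rps27rt and Rpl34-ps1, with open circles for siControl and diamonds for siBcat1. The copy holds far more counts than the parent in each pair, as for Rpl26 with 235 and Gm15772 with 104282 counts in siControl.

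Levels between genes were compared in TPM. On this scale the members held 18.8% of all TPM in siControl and 28.8% in siBcat1, a ratio of 1.53, and 4 members were at least 2-fold higher in TPM plus 1 (background 1.27%). Rplp1 was the highest member in both libraries, with 9532 and 16423 TPM, and rank 2 among all genes in both. Next by mean level came Rps12 (5178 and 10663 TPM), Rpl41 (5802 and 9489 TPM), Rps2 (6630 and 8564 TPM) and Rps9 (3844 and 9258 TPM). The lowest analysed members were Rpl7l1 (75.5 and 56.2 TPM), Rps4l (100 and 113 TPM) and Rpl34 (138 and 155 TPM). Rpl7l1 and Rpl15 (981 and 979 TPM) were thus not higher in siBcat1 in TPM. Their log2 folds in TPM plus 1, -0.42 for Rpl7l1 and -0.0026 for Rpl15, still lay above the all-gene median on that scale, -0.47.

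Although ribosomes need near-equal amounts of nearly every protein, TPM of the mRNAs spanned a wide range. Among 73 analysed standard members, without Rpl34, the median TPM was 2412 in siControl and 3220 in siBcat1. The highest was 30.9 times the lowest in siControl and 28.7 times in siBcat1, and the upper quartile was 1.79 and 1.80 times the lower. The highest was Rplp1, of the P stalk, whose acidic proteins are present in several copies. The lowest were Rpl22 in siControl (309 TPM) and Rps15a in siBcat1 (573 TPM), with long implied lengths of 2208 and 5154 bases. In siControl Rps15a had 813 CPM, the median of the analysed members, so the full range depends on the lengths used. The order of the genes was largely kept, with a Spearman correlation of 0.941 between the log2 TPM of the libraries over 79 members. Within that order Rps9 moved from rank 9 to 4 among members, Rps27a from 40 to 19 and Rplp2 from 33 to 13. Rpl3 moved the other way, from rank 42 to 62. Among the 100 highest genes of each library, 52 were members in siControl and 64 in siBcat1.

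**Figure D5:**
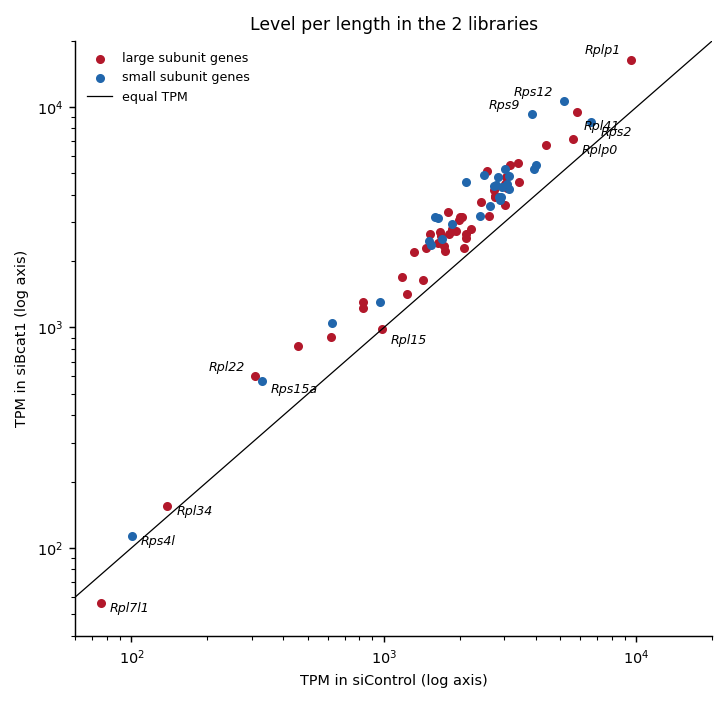
TPM of analysed members in siControl and siBcat1 (both axes log), with a line of equal TPM. Most genes lie above the line, Rpl15 lies on it (981 and 979 TPM), Rpl7l1 lies below it, and Rps9 and Rps12 stand above genes of similar siControl level.

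The start tract and small nucleolar RNAs (snoRNAs) in introns, features that the family is known for, were set beside the folds. Of analysed members with a RefSeq start, the 35 with a run of C and T had a median log2 fold of 1.13 (0.50 to 1.77) and the 23 without had 1.05 (0.08 to 1.49). Their ranges overlap widely, and Rpl15 has the longest run printed above and a low fold. SnoRNAs guide the modification of ribosomal RNA, and 29 of the 79 analysed members (36.7%) carry an annotated snoRNA gene within their span, against 2.71% of 9928 analysed genes. The 29 hosts had a median log2 fold of 1.07 and the other members 1.09. Other genes overlapping the members were found by their spans, and reads lying over both genes were not counted. The largest overlapping row in siControl, Sphk2 at Rpl18, had 4073 and 910 counts, against 87993 and 148846 for Rpl18. The largest in siBcat1, Dipk1a at Rpl5, had 3556 and 2244, against 150847 and 236214 for Rpl5.

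Ribosomal proteins that the symbol rule leaves out were also higher in siBcat1. Rps3a1 had 1495 and 3495 CPM (log2 fold 1.22) and Fau, in which a ubiquitin-like protein is fused to a small subunit protein, had 454 and 1020 CPM (1.17). Rack1, the scaffold on the small subunit head, had 2170 and 3242 CPM (0.58). With the 4 genes of this kind the family held 7.81% and 15.4% of counts.

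Other mRNAs known to start with an oligopyrimidine tract were also mostly higher. Of 20 such genes, 19 were above 0, with a median log2 fold of 0.75, 3 at least 2-fold higher and none 2-fold lower, where 46.8%, 5.58% and 13% of all analysed genes were. The 3 were Hnrnpa1, a splicing regulator, with 24.8 and 203 CPM (3.04), Gas5, a snoRNA host, with 14.7 and 52.4 CPM (1.83), and Eif4a2, an initiation helicase, with 82.6 and 219 CPM (1.41). Eif3f, an initiation factor subunit, had 0.99, and Npm1, a nucleolar chaperone, was the single gene of this list below 0, at -0.14. Eef2, which also has a tract, was placed with the elongation factors below and had -0.21. The same factors include Eef1a1, Eef1b2, Eef1d and Eef1g (0.53, 1.60, 1.06 and 0.75), whose starts are not given here. Of those 11 factors, 7 were above 0 and 4 below, so these counts depend on the list. After the length step the median of the 20 genes was 0.33, close to the 0.30 of the ribosomal proteins, and 14 of the 20 were above 0 (background 49.9%).

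Among 11 elongation and termination factors the median was 0.53, and 2 were at least 2-fold higher (background 5.58%). Both encode exchange factor subunits of eEF1: Eef1b2 had 932 and 2816 CPM (1.60), and Eef1d had 221 and 461 CPM (1.06). Eef1a1, which delivers aminoacyl-tRNA to the ribosome, had 15066 and 21698 CPM (0.53). Eef2, which drives translocation and also has a tract at its start, had 4046 and 3505 CPM (-0.21), and its regulatory kinase Eef2k had -0.62.

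Genes that act on these mRNAs were mostly lower in siBcat1 in counts. Of 14 analysed binders of tract mRNAs, mTOR pathway genes and S6 kinases, none was 2-fold higher (background 5.58%) and 4 were 2-fold lower (background 13%), with a median of -0.35. The 4 were Eif4ebp2, a translation repressor, with 49.3 and 9.21 CPM (-2.42), Rptor with 43.1 and 13.8 CPM (-1.65), Mtor with 33.1 and 13.6 CPM (-1.28), and Larp4 with 69.0 and 33.2 CPM (-1.06). Larp1 had 92.3 and 72.7 CPM (-0.34), and the kinase gene Rps6kb1 47.5 and 43.9 CPM (-0.11). Several of these transcripts are long. After the length step the list's median was 0.10 and 1 gene was 2-fold lower (background 5.3%), with Larp1 at 0.43, Mtor at -0.30, Rptor at -0.87 and Eif4ebp2 at -2.90.

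Ribosome assembly genes differed less than ribosomal protein genes. The 24 genes of the small subunit processome had a median of 0.13. Of these, 1 was at least 2-fold higher (background 5.58%) and none 2-fold lower (background 13%). The 1 gene was Imp3 at 1.09 (45.9 and 98.0 CPM), while Heatr1 had -0.99 and Utp18 0.81. The 28 genes of large subunit assembly had a median of 0.41. There 2 were at least 2-fold higher (background 5.58%), Mrto4 at 1.09 and Rpf2 at 1.06. In the same list 1 was 2-fold lower (background 13%), Mdn1, a giant AAA ATPase of late assembly, at -2.32 (17.6 and 3.52 CPM). Of 21 analysed genes of RNA polymerase I and its factors, 4 were at least 2-fold higher (background 5.58%) and 1 lower (background 13%), with a median of 0.62. After the length step 2 were higher (background 4.29%) and none lower (background 5.3%). Small subunits led this list, with Polr2l at 1.68 (99.6 and 320 CPM), Znrd1 at 1.07 and Polr1d at 1.06, whereas the catalytic subunit gene Polr1a had -1.04 (40.8 and 19.9 CPM). The 15 genes for chaperones and importins of ribosomal proteins had a median of 0.23, none 2-fold higher (background 5.58%) or lower (background 13%). Among them Naca had 0.94, Btf3 0.90, and Ipo5 and Ipo9 -0.85 each. Naca, Btf3 and Nap1l1 are also counted among the oligopyrimidine mRNAs above. After the length step the medians of these lists were 0.23, 0.30, 0.31 and 0.11, and that of the ribosomal proteins 0.30.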

How the data were processed

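Messenger RNA of mouse cardiac myofibroblasts was sequenced in 2 libraries, siControl and siBcat1, grouped by the treatment label. Per the labels' protocols, libraries were made with a stranded mRNA kit and read on an Illumina instrument. Per the submitters' processing notes, the tools were FastQC, Trimmomatic, HISAT2 and StringTie and the build mm10. Their settings and roles, and any use of strand in counting, were not given in the sources used here. As deposited by the authors, there is a table of gene counts, whole numbers per gene, and TPM values, scaled for length and depth, per the file headers. Every row of the count table names a gene.

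Counts were scaled with TMM factors from edgeR 4.0.16 (R 4.3.3). The analysis kept genes whose mean over both libraries reached 5 CPM. Folds have exact (Clopper-Pearson) 95% intervals, taken from the split of a gene's counts between the libraries. One CPM equalled 131 counts in siControl and 101 in siBcat1. With 1 library per group there are no tests, and 2-fold is a rule of size. The length step subtracts a lowess curve (fraction 0.3, 3 iterations, statsmodels 0.14.6) of log2 fold on log2 length of the longest GENCODE M21 transcript matched by RefSeq accession, which accounted for 37.5% of the variance. Transcripts of duplicated copies and their parents were aligned with blastn 2.17.0. The mismatches of the processed copies came from the local pairwise aligner of Biopython. Coordinates are GRCm38, counted from 1. The calculations were tested on simulated data.

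The members and the gene lists were chosen with earlier results of these data known. Named were the members below the minimum, the 8 highest and 8 lowest by fold, the 5 highest and 3 lowest by TPM, the duplicated copies and their parents, the P stalk and 5S genes, Rps6, Rps19, Rps27a, Rpsa, the 4 ribosomal proteins outside the rule, and up to 4 genes per list with the largest absolute fold. Some genes covered by this rule are not reported here. Outside this rule, Rps15a, Rps20, Rpl18, Sphk2, Dipk1a, Larp1, Rps6kb1, Npm1, Eef2, Eef2k and the processed copies were chosen after their values were seen. The alternatives tried were other scalings (size factors of DESeq2 1.42.0, upper quartiles, or totals alone), TPM in place of counts (pseudocounts 1 and 0.1), other minimum levels (1 CPM, 20 CPM, or none with a prior count of 0.5), length and GC trends, other fold limits (1.5-fold, 3-fold, or the entire interval beyond 2-fold), the mean in place of the median, and other member sets. Implied lengths and summed processed copies were added after seeing the data.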

Additional observations from a re-analysis of the deposited data

How the results depend on the processing

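No paired analysis was possible because each group has 1 library. The main values were a median log2 fold of 1.07 for all members, 1.07 for the large and 1.13 for the small subunit, and 51 members at least 2-fold higher. In the same order, library totals gave medians of 0.98, 0.98 and 1.04 with 38 past 2-fold. Upper-quartile factors gave 1.20, 1.20 and 1.26 with 64, and the median of all genes moved by 0.13. TPM with a pseudocount of 1 gave 0.56, 0.56 and 0.60 with 4 past 2-fold. The all-gene median moved by -0.41 there, over 8811 genes in place of 9935. A pseudocount of 0.1 gave 0.57, 0.56 and 0.60 with 4. Removal of the length trend gave 0.30, 0.29 and 0.39 with 3 past 2-fold, length and GC 0.34, 0.31 and 0.49 with 4, and the implied length, chosen after seeing the data, 0.28, 0.28 and 0.33 with 3. The small subunit median was 1.11 with a minimum of 1 CPM and 1.11 with none. The median was 1.09 without the duplicated copies, and 2 members passed 3-fold. No member was 2-fold lower in any setting.

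The share of counts in siControl and siBcat1 became 18.8% and 28.8% in TPM, 7.89% and 15.6% without the 10 largest other genes, 7.37% and 14.7% with pseudogenes, 7.81% and 15.4% with the 4 genes outside the rule, and 7.50% and 14.9% with the 3 processed copies, a set chosen after seeing the data.

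Single folds changed sign for Rpl7l1 with library totals (-0.012) and TPM (-0.42 with either pseudocount), and for Rpl15 with TPM (-0.0026 with either). The length trend turned Rpl29 (-0.11), Rpl34 (-0.22), Rps27l (-0.00085) and Rps4l (-0.030). Length and GC turned Rpl31 (-0.060), Rpl34 (-0.084) and Rps27l (-0.20), and the implied length Rpl29 (-0.041), Rpl34 (-0.24) and Rps27l (-0.0045).

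The scaled values are relative to each library's total, so they do not give the amount of ribosomal protein mRNA per cell. Depth limits few members: counting intervals are narrow except for the 6 below the minimum. Variation between cultures was not measured, and siRNA effects other than loss of Bcat1 were not separated from it.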
